A study of Mus musculus with 3 samples.

Results

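DU101 and DU102 were compared across the white blood cells of mouse liver tumours, lineage by lineage and gene by gene. The compared cells were 14257 from the library labelled DU101 treated and 11710 from the library labelled DU102 treated, 25967 of the 36386 cells that passed the same limits in all 3 libraries of the study. A cell was a barcode with at least 200 genes and at most 10% of its UMIs (counted RNA molecules) from mitochondrial genes. Both libraries held live CD45+ cells, sorted by flow cytometry after red cell lysis from liver tumours of MYC-ON mice, C57BL6 strain, 18 weeks old. CD45, the product of Ptprc, is carried by white blood cells. The sources used here do not say what the treatments named DU101 and DU102 were. They also give no dose or length of treatment, no number of animals per library, and no promoter or cell type that drives MYC. Each side has 1 library, so no difference has a replicate check and no test was made. Intervals are exact 95% intervals and cover counting error only.

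Liver tumours hold most white blood cell types of the blood together with cells that live in tissue. Interferons released by cells or given as treatment switch on a shared set of antiviral genes in nearly every cell type, and protein damage switches on heat shock chaperones in the same broad way. Dendritic cells and macrophages present antigen on MHC class II and attract T cells with chemokines, T and NK cells kill, B cells mature into antibody-secreting plasma cells, and neutrophils leave the marrow as short-lived cells filled with granule proteins.

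The libraries were close in depth. DU101 held 106604935 UMIs over 15686 barcodes and DU102 96817875 UMIs over 13650. The filtered cells had a median of 4923 UMIs and 1573 genes in DU101 and 5201.5 UMIs and 1628 genes in DU102. More than 10% mitochondrial UMIs were found in 9.09% of DU101 and 14.0% of DU102 barcodes. The libraries shared 45 cell barcodes, 0.316% of the DU101 cells and 0.384% of the DU102 cells. Each cell was placed by marker genes, 8 per lineage, into the lineage with the most markers detected. The gates took in 91.9% of DU101 and 91.8% of DU102 cells, and all 8 markers of a gate were detected in it in both libraries. RNA of other cell types was found in the gates. The 8 plasma cell markers summed to 206 CPM (a gene's UMIs as parts of its lineage's total, at the usual CPM scale) in DU101 T cells and 59.4 CPM in DU102 T cells. The 8 markers of hepatic tumour cells or hepatocytes, 1 of them at 0 in both libraries, summed to 29.3 CPM in DU101 neutrophils and 148 CPM in DU102 neutrophils. Genes of these cells are given below beside the results they move with.

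The lineage shares differed most in the B cell line. Plasma cells made up 4.15% of DU101 cells (592 cells) and 0.709% of DU102 cells (83 cells), a share 5.86-fold higher in DU101 (interval 4.65 to 7.46). B cells went the other way, with 3.48% in DU101 and 8.49% in DU102, 2.44-fold higher in DU102 (interval 2.19 to 2.72). DU101 thus held 496 B cells beside its 592 plasma cells, and DU102 994 B cells beside its 83. All 3 classes of conventional or migratory dendritic cell had a higher share in DU101. cDC1, the dendritic cells that cross-present antigen to CD8 T cells, stood at 2.48% against 1.43%, 1.74-fold higher (interval 1.44 to 2.11). cDC2, which present mostly to CD4 T cells, stood at 1.80% against 0.811%, 2.22-fold higher (interval 1.75 to 2.84). Migratory dendritic cells, the Ccr7-bearing cells that travel to lymph nodes, stood at 1.06% against 0.384%, 2.76-fold higher (interval 1.96 to 3.94). Plasmacytoid dendritic cells (pDC), known as makers of type I interferon, were close, at 3.16% and 2.71% (ratio 1.17, interval 1.01 to 1.35).

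T cells were the largest lineage in both libraries and their share was 1.22-fold higher in DU101 (27.7% against 22.7%, interval 1.16 to 1.28). Among the T cell sub-gates, CD4 T cells were 4.85% in DU101 and 3.71% in DU102, and Foxp3-bearing regulatory T cells 1.91% and 1.47%. CD8 T cells were 13.8% and 12.4% of all cells, and 49.7% and 54.7% of T cells. Gamma-delta T cells were 0.722% and 0.760%. The ratios of CD4 T cells (1.31, interval 1.16 to 1.48) and regulatory T cells (1.30, interval 1.07 to 1.59) lay above that of CD8 T cells (1.11, interval 1.04 to 1.19), but the interval of CD8 T cells overlapped both. NK and ILC1 cells, which the markers did not separate, were 6.47% and 5.59% (ratio 1.16, interval 1.04 to 1.28). Basophils and mast cells were 0.694% and 0.282%, 2.46-fold higher in DU101 (interval 1.65 to 3.77) on 99 and 33 cells.

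Neutrophils took 10.2% of DU101 and 17.2% of DU102 cells, 1.69-fold higher in DU102 (interval 1.58 to 1.81), and their Mpo- and Elane-bearing precursors 6.94% and 9.73%, 1.40-fold higher in DU102 (interval 1.29 to 1.53). The larger part of the gap lay in one sub-gate. Blood-type neutrophils, the mature cells of the circulation, were 4.27% in DU101 and 8.92% in DU102, 2.09-fold higher in DU102 (interval 1.89 to 2.31). Immature neutrophils were 2.90% and 3.46%, and tumour-type neutrophils 1.07% and 1.61%. Of the neutrophils, 28.6% were immature in DU101 and 20.2% in DU102, while 42.0% and 52.0% were blood-type. Neutrophils also had fewer UMIs per cell in DU101 (median 2669 against 3649), so gates that count detected markers had less to count there. After each cell was thinned to 2000 UMIs, leaving out shallower cells, the log2 ratio of neutrophil shares was -1.11, against -0.75 without thinning. Of the neutrophils gated before thinning, 885 of 1450 in DU101 and 1462 of 2009 in DU102 were deep enough to stay. The thinned ratio thus cannot separate an effect of depth from the unequal loss of shallow cells.

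Monocytes and macrophages together were 21.4% of DU101 and 18.3% of DU102 cells (ratio 1.17, interval 1.11 to 1.24). Within them, macrophages were 6.92% and 5.49% (ratio 1.26, interval 1.14 to 1.39). Classical monocytes were 6.97% and 6.27% (ratio 1.11, interval 1.01 to 1.23). Patrolling monocytes, at 4.78% and 4.52%, had a ratio whose interval included 1 (0.944 to 1.19), as did Kupffer cells, the resident macrophages of the liver, at 0.512% and 0.418% (0.841 to 1.80). Hepatic tumour cells or hepatocytes, which a CD45+ sort should leave out, were 0.961% and 2.04%, 2.12-fold higher in DU102 (interval 1.71 to 2.64), and erythroid cells 0.189% and 0.401%. Endothelial cells were 0.989% and 0.931%. Shares add up to the whole of a library and are not independent of each other.

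**Figure D1:**
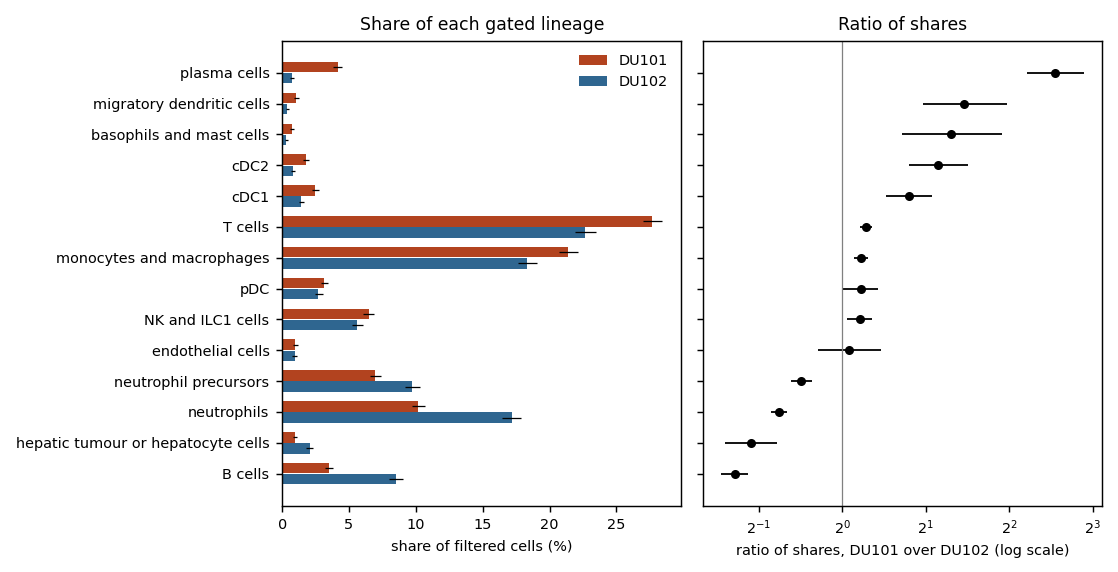
Left, share of filtered cells in each gated lineage as a percentage (bars, with exact 95% intervals) in DU101 (red) and DU102 (blue). Right, the ratio of the shares on a log scale with its 95% interval; plasma cells (5.86) lie furthest right, and B cells (0.410), hepatic cells and neutrophils (0.593) lie left of 1.

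Gene expression was compared within lineages by summing UMIs per library. A gene was called higher in a library by size alone, at a CPM ratio of 1.5 or more with its interval on that side of 1, among genes with at least 30 UMIs over both libraries. A fold is given toward the library with the higher level, and genes that missed the size rule are given with both levels. In T cells, 3.9% of 11952 measured genes were called higher in DU101 and 5.03% higher in DU102. The same shares were 2.68% and 6.33% in NK and ILC1 cells, 3.51% and 10% in B cells, and 6.94% and 2.49% in neutrophils. They were 3.06% and 3.34% in neutrophil precursors, 3.25% and 3.83% in classical monocytes, 3.17% and 8.4% in patrolling monocytes, and 4.49% and 11% in macrophages. cDC1 had 2.99% and 6.81%, and pDC 3.58% and 6%. Neutrophils were the exception among these 10 lineages, each with at least 100 cells in both libraries, in having more genes called higher in DU101. Another 4 lineages had 45 to 95 cells in DU102 and are described apart: plasma cells (3.49% and 23.1%), Kupffer cells (8.82% and 7.35%), cDC2 (3.07% and 8.67%) and migratory dendritic cells (5.48% and 6.22%).

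The balance of the calls depended on the scaling. The median log2 ratio of all measured genes was -0.12 in B cells, -0.12 in macrophages, -0.11 in patrolling monocytes, -0.10 in cDC1, 0.12 in neutrophils and -0.35 in plasma cells; in the other main lineages it lay between -0.08 and -0.04. Of the called genes, the percentage higher in DU101 was 43.7 in T cells, 29.8 in NK and ILC1 cells, 25.9 in B cells, 73.6 in neutrophils and 47.8 in precursors. When libraries were scaled by the median ratio instead, it was 57.1, 45.1, 45, 53.7 and 58.2 in the same order. It went from 45.8 to 57.3 in classical monocytes, from 27.4 to 49.2 in patrolling monocytes and from 29.0 to 48.8 in macrophages. It went from 30.5 to 49.4 in cDC1, from 37.4 to 50.8 in pDC, from 13.1 to 48.9 in plasma cells and from 26.1 to 49.5 in cDC2. Under TMM, a scaling that trims extreme genes, it was 58.5 in T cells, 48.3 in NK and ILC1 cells, 43.6 in B cells, 53.5 in neutrophils, 56.2 in classical monocytes, 48.8 in patrolling monocytes, 50.5 in macrophages, 54.6 in cDC1 and 50.7 in pDC. TMM gave 56.0 in plasma cells, 65.6 in Kupffer cells against 54.5, 58.8 in cDC2 and 67.7 in migratory dendritic cells against 46.8. With each cell given the same weight it was 32.5 in precursors. The 76 single genes named for a lineage below kept their call in 833 of 836 recalculations; the 3 exceptions were Hist1h2ae in B cells, Cap1 in neutrophil precursors and Ypel3 in plasma cells, all with each cell given the same weight.

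**Figure D2:**
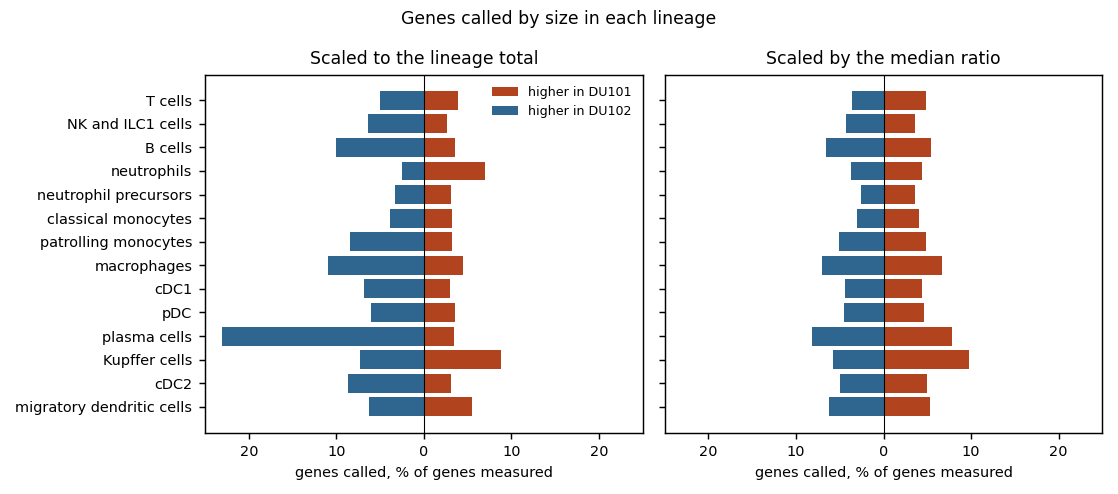
Percentage of measured genes called higher in DU101 (red, right of 0) or higher in DU102 (blue, left of 0) in each lineage, scaled to the lineage total (left panel) or by the median ratio (right panel). The left panel leans to DU102 in most lineages, most in plasma cells (23.1%); the right panel is nearer to balance.

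Most called genes were called in a single lineage. Of 13118 genes measured in any of the 10 main lineages, 2159 were called higher in DU101 in at least 1 and 3941 higher in DU102, while 1465 and 2615 of them were called in 1 lineage only. In all 10 lineages, 10 genes were called higher in DU101 and 9 higher in DU102. The first group held Isg15, an interferon-induced ubiquitin-like protein, Atf3, a stress-induced transcription factor, and H2-Eb1, an MHC class II beta chain. It also held Rnaset2b, a copy of the gene for ribonuclease T2, Sft2d1, a small protein of vesicle transport, and the ribosomal protein gene Rpl29. The other 4 were antibody chain genes (Igha, Igkc, Iglc1 and Jchain). The second group held 3 haemoglobin genes (Hba-a1, Hba-a2 and Hbb-bs), Gdpd3, a lysophospholipase D, and 5 gene models without a descriptive name. Tnfsf9, the ligand of the costimulatory receptor 4-1BB, Hspb1, a small heat shock protein, and the interferon-induced Usp18 and Ifi213 were called higher in DU101 in 9 lineages. Hddc3, a pyrophosphatase, and Zc3h6 were called higher in DU102 in 9, and Lars2, the mitochondrial leucyl-tRNA synthetase, in 8. Lars2 was listed here among genes linked to ribosomal RNA or the nucleus. Gm42418 of that list was called higher in DU102 in 9 (median log2 ratio -1.17, beside -1.04 for Lars2). Malat1 and Neat1 of the list were called in 0 of 10, and Meg3 in both directions. The part of ribosomal RNA reads in the Lars2 values was not tested.

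Isg15 was higher in DU101 by 1.57-fold in B cells up to 3.14-fold in cDC1. In T cells it stood at 235 CPM in DU101 and 120.4 CPM in DU102, 1.95-fold (interval 1.85 to 2.06). In macrophages it stood at 420.0 CPM in DU101 and 190.0 CPM in DU102, 2.21-fold (interval 2.04 to 2.402). The order of lineages was similar in both libraries, with macrophages and classical monocytes at the top (404 and 226 CPM in classical monocytes) and B cells and neutrophil precursors lowest (54.6 and 23.7 CPM in precursors). Atf3 was highest in classical monocytes, at 1396 CPM in DU101 and 666 CPM in DU102, 2.098-fold (interval 2.02 to 2.18), and lower but further apart in T cells, at 60.2 CPM in DU101 and 19.5 CPM in DU102, 3.08-fold (interval 2.72 to 3.502). Gdpd3 shifted evenly. Its DU101 over DU102 ratio ran only from 0.531 to 0.615 across the 10 lineages, whose levels ran from 20.3 to 151 CPM in DU101. Lars2 stood at 587 CPM in DU101 and 1477 CPM in DU102 in T cells, 2.52-fold (interval 2.46 to 2.57) higher in DU102, and at 637 CPM in DU101 and 1626 CPM in DU102 in B cells. Hddc3 was a low gene in each lineage, with 0.334 to 3.70 CPM in DU101 and 2.86 to 13.6 CPM in DU102.

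Of the other shared genes, Rnaset2b was 2.12- to 8.13-fold higher in DU101, whereas its neighbouring copy Rnaset2a was called in 0 of 10 lineages, with ratios of 0.679 to 0.906. In NK and ILC1 cells Rnaset2b stood at 116 CPM in DU101 and 15.6 CPM in DU102, 7.44-fold (interval 6.02 to 9.28). Rpl29 was 4.94- to 17.7-fold higher in DU101, while Rpl28 and Rpl30 were called in 0 of 10 lineages, with ratios of at most 1.19. Sft2d1 was 1.86- to 4.73-fold higher. Reads of near-identical gene copies can be split or dropped in counting, and Rnaset2b and Rpl29 both have such copies in the mouse genome, so their values are uncertain. The labels give the strain C57BL6 for both libraries. Whether their animals carry the same alleles at Rnaset2b, Rpl29, H2-Eb1, Gdpd3 and Lars2 was not tested, and a difference of genetic background there cannot be told apart from one between the treatments. The antibody chain genes were higher in DU101 in lineages that do not make antibody, with Igha 9.54- to 18.0-fold higher across the 10 lineages, in the library with the 5.86-fold larger share of plasma cells. The haemoglobin gene Hbb-bs was higher in DU102 in all 10 lineages, at up to 61.4 CPM in DU101 and up to 1841 CPM in DU102, and albumin (Alb) in 9, in the library with the larger shares of erythroid and hepatic cells. How much of these differences is RNA carried over from plasma, red or hepatic cells was not tested.

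**Figure D3:**
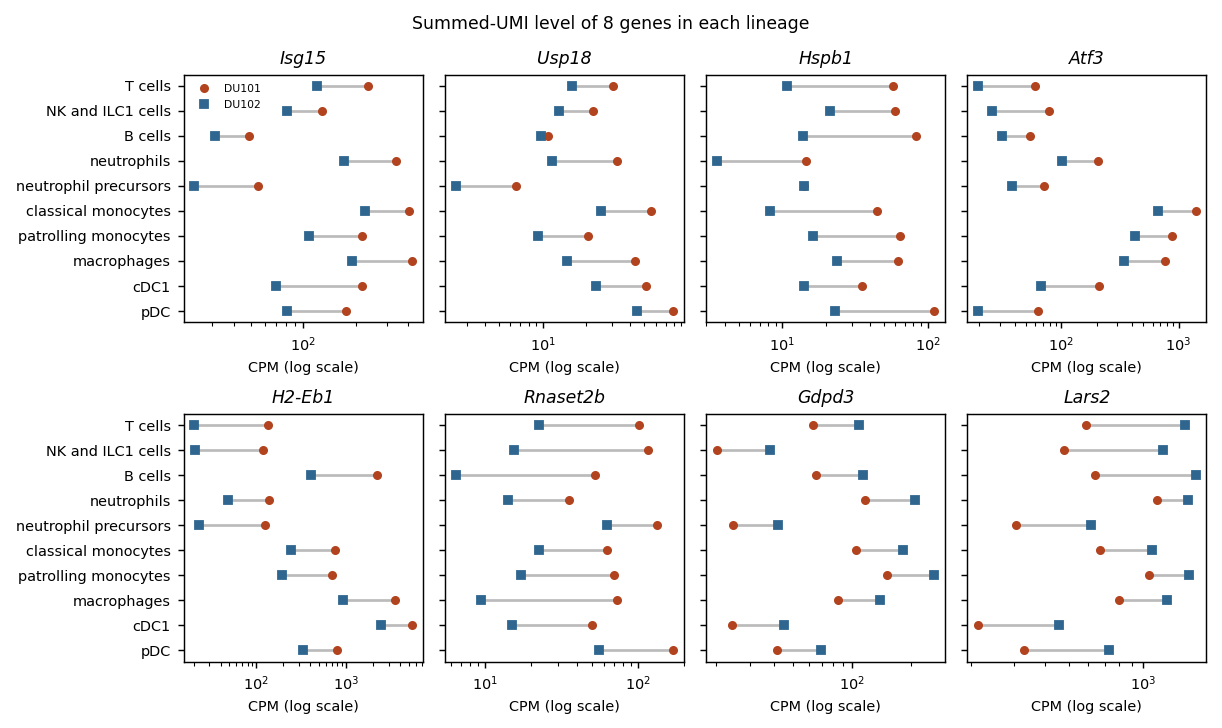
CPM (log scale) of 8 genes in the 10 main lineages, DU101 as red circles and DU102 as blue squares, joined by a line. Isg15, Atf3, H2-Eb1 and Rnaset2b are higher in DU101 in every lineage shown, Hspb1 in all but neutrophil precursors, Usp18 in 9 by the size rule, and Gdpd3 and Lars2 lie higher in DU102.

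The type I interferon-induced list had a median above 0, toward DU101, in every main lineage. Of 25 listed genes, 23 were in the feature table (Mx1 and Mx2 were not matched), and over the 10 lineages 123 of 223 gene-lineage pairs were called higher in DU101 and 1 higher in DU102. The median log2 ratio ran from 0.18 in B cells to 0.98 in neutrophils and in neutrophil precursors, beside all-gene medians of -0.12, 0.12 and -0.04 in those lineages. In neutrophils 19 of 23 genes were called higher in DU101 and 0 higher in DU102, where 6.94% of all measured genes were called higher in DU101. Neutrophil precursors and macrophages had 16 of 23 each, T cells 15, patrolling monocytes 14, classical monocytes 11 and NK and ILC1 cells 9. cDC1 had 10 of 22 and pDC 10 of 19, with Ifit1 the 1 gene called higher in DU102 (7.71 and 14.4 CPM; 6.201 and 3.42 CPM without the 2 cells richest in it in each library). B cells stood apart with 3 of 21, where 3.51% of all measured genes were called higher in DU101. Of the smaller lineages, migratory dendritic cells had 15 of 17 called, with a median of 1.88.

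Among the sensors and effectors of this list, Ifit2, which binds foreign RNA, stood at 53.7 CPM in DU101 and 13.97 CPM in DU102 in neutrophils, 3.84-fold (interval 3.19 to 4.64). Ifi27l2a was the most abundant member there, at 1352 CPM in DU101 and 433 CPM in DU102, 3.12-fold (interval 3.02 to 3.23). Bst2, tetherin, which holds virus particles at the cell surface, stood at 269.6 CPM in DU101 and 119.8 CPM in DU102 in T cells, 2.25-fold (interval 2.13 to 2.37). It was far more abundant in pDC, of which it is a marker, and was close there (3931 CPM in DU101 and 3286 CPM in DU102, ratio 1.196, interval 1.16 to 1.23). Irf7, the transcription factor that amplifies type I interferon, stood at 24.3 CPM in DU101 and 7.73 CPM in DU102 in neutrophil precursors, 3.14-fold (interval 2.58 to 3.84). Usp18, which dampens interferon signalling, stood at 43.4 CPM in DU101 and 14.7 CPM in DU102 in macrophages, 2.95-fold (interval 2.21 to 3.998).

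The direction was the same within each neutrophil sub-gate. Ifit2 stood at 23.1 and 6.03 CPM in immature, 78.04 and 15.9 CPM in blood-type and 118 and 22.6 CPM in tumour-type neutrophils of DU101 and DU102, where 10 and 8 cells carried it. Isg15 ratios were 3.1, 2.34 and 1.64 in the same order. Of genes induced chiefly by interferon-gamma, 49 of 171 gene-lineage pairs were called higher in DU101 and 4 higher in DU102, with list medians of 0.02 to 0.69. Macrophages had the most, 10 of 18, and NK and ILC1 cells 0 of 17. Of all measured genes, 4.49% were called higher in DU101 in macrophages and 2.68% in NK and ILC1 cells. In macrophages Iigp1, an immunity-related GTPase, stood at 43.4 CPM in DU101 and 15.7 CPM in DU102, 2.77-fold (interval 2.09 to 3.71), and Gbp2, a guanylate-binding protein, at 63.9 CPM in DU101 and 34.4 CPM in DU102, 1.86-fold (interval 1.52 to 2.28). Irf1 was close (84.4 CPM in DU101 and 69.7 CPM in DU102, ratio 1.21, interval 1.04 to 1.41).

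Many promoters of the interferon list hold the letters of the interferon-stimulated response element, the site bound by interferon-activated transcription factors. The letters, GAAA, then any 2 bases, then GAAA, were searched on both strands from 250 bases before to 50 after each start. They were present for 11 of the 18 list genes in the RefSeq promoter table (GRCm38.p6), and for 3.99% of its 27025 genes. The 11 were Isg15, Ifit1, Ifit3, Ifit3b, Rsad2, Oas1a, Oas3, Bst2, Stat2, Ddx58 and Ifih1. The Isg15 promoter is shown because Isg15 was called in all 10 lineages and holds 3 overlapping matches, the first starting 78 bases before the start; capitals mark the matched letters (chr4:156200769-156201068, minus strand).
Isg15: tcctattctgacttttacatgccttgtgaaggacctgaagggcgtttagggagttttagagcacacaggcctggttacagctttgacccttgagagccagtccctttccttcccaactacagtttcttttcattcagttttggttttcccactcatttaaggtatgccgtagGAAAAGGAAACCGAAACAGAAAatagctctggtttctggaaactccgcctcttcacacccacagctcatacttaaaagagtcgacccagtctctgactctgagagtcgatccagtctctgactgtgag
Irf7, Ifit2, Ifi44 and Xaf1 are list genes with no match in this window, which says only that these letters are not there.

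**Figure D4:**
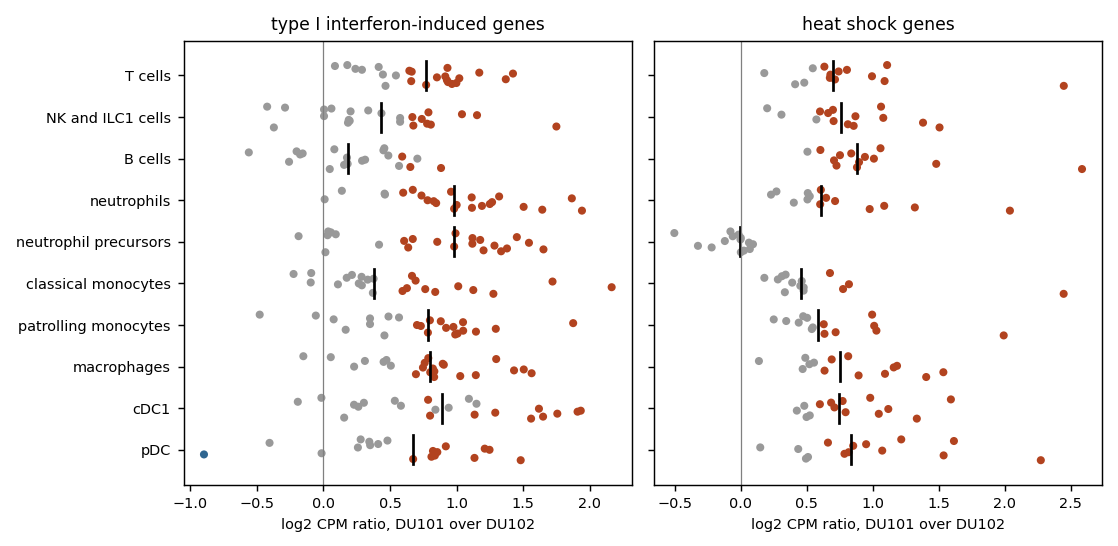
Log2 CPM ratio (DU101 over DU102) of each measured member of the type I interferon-induced list (left) and the heat shock list (right) in each main lineage; red points are called higher in DU101, blue higher in DU102, grey not called, and the bar is the list's median. Interferon medians lie right of 0 in all 10 lineages, and heat shock medians in 9, with neutrophil precursors at -0.01.

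Heat shock genes had more pairs called higher in DU101 than any list but the type I interferon-induced one, with 81 of 139 gene-lineage pairs called higher in DU101 and 0 higher in DU102. The list's median log2 ratio was 0.46 to 0.88 in 9 lineages and -0.01 in neutrophil precursors, where 0 of 14 genes were called. B cells had 12 of 13 genes called higher in DU101, where 3.51% of all their genes were. NK and ILC1 cells had 11 of 14, and T cells, cDC1 and pDC 10 of 14 each. Hspb1 had the highest median ratio of the list. It stood at 58.2 CPM in DU101 and 10.7 CPM in DU102 in T cells, 5.45-fold (interval 4.63 to 6.44), and at 83.1 CPM in DU101 and 13.9 CPM in DU102 in B cells, 5.996-fold (interval 4.41 to 8.24), while precursors had 14.2 and 14.2 CPM. Few cells carried it: a UMI was found in 9.48% of cells in DU101 and 2.92% in DU102 among B cells.

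The abundant chaperones had smaller ratios. Dnaja1, a cochaperone of Hsp70, stood at 1100 CPM in DU101 and 552 CPM in DU102 in T cells, 1.99-fold (interval 1.94 to 2.04), and was called in 9 of the 10 lineages. Hsph1, an Hsp70 exchange factor, stood at 266 CPM in DU101 and 95.4 CPM in DU102 in B cells, 2.79-fold (interval 2.44 to 3.19). Hspa1a, the inducible Hsp70 that tissue dissociation is known to raise, was called in 5. It stood at 797 CPM in DU101 and 441 CPM in DU102 in NK and ILC1 cells, 1.81-fold (interval 1.73 to 1.89), and at 1083 CPM in DU101 and 814 CPM in DU102 in T cells, under the size rule (ratio 1.33, interval 1.301 to 1.36). Immediate-early genes, which dissociation also raises, had medians above 0 in all 10 lineages (0.22 to 0.57) with 57 of 221 pairs called higher in DU101 and 4 higher in DU102. The part of handling in these differences was not tested.

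The heat shock element, the site of the factor HSF1, was searched on both strands as GAA, TTC and GAA with any 2 bases between each. It was present in the promoters of 4 of the 11 list genes in the table (Chordc1, Hspd1, Hspe1 and Hsph1) and of 0.662% of all 27025 genes. Chordc1, an Hsp90-binding protein, is shown because its 3 overlapping matches span the start site, the first from 4 bases before it (chr9:18292017-18292316, plus strand, capitals mark the matched letters).
Chordc1: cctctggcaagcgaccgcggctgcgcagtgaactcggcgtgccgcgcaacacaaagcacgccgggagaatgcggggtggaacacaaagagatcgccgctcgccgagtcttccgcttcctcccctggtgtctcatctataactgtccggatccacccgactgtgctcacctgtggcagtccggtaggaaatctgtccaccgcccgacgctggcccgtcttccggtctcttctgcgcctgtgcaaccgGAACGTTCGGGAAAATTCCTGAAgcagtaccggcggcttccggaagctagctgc
Chordc1 RNA stood at 179.9 CPM in DU101 and 77.5 CPM in DU102 in pDC, 2.32-fold (interval 1.98 to 2.73), and at 61.6 CPM in DU101 and 65.1 CPM in DU102 in neutrophil precursors (ratio 0.947, interval 0.869 to 1.03). Hspb1 had no match in this window.

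**Figure D5:**
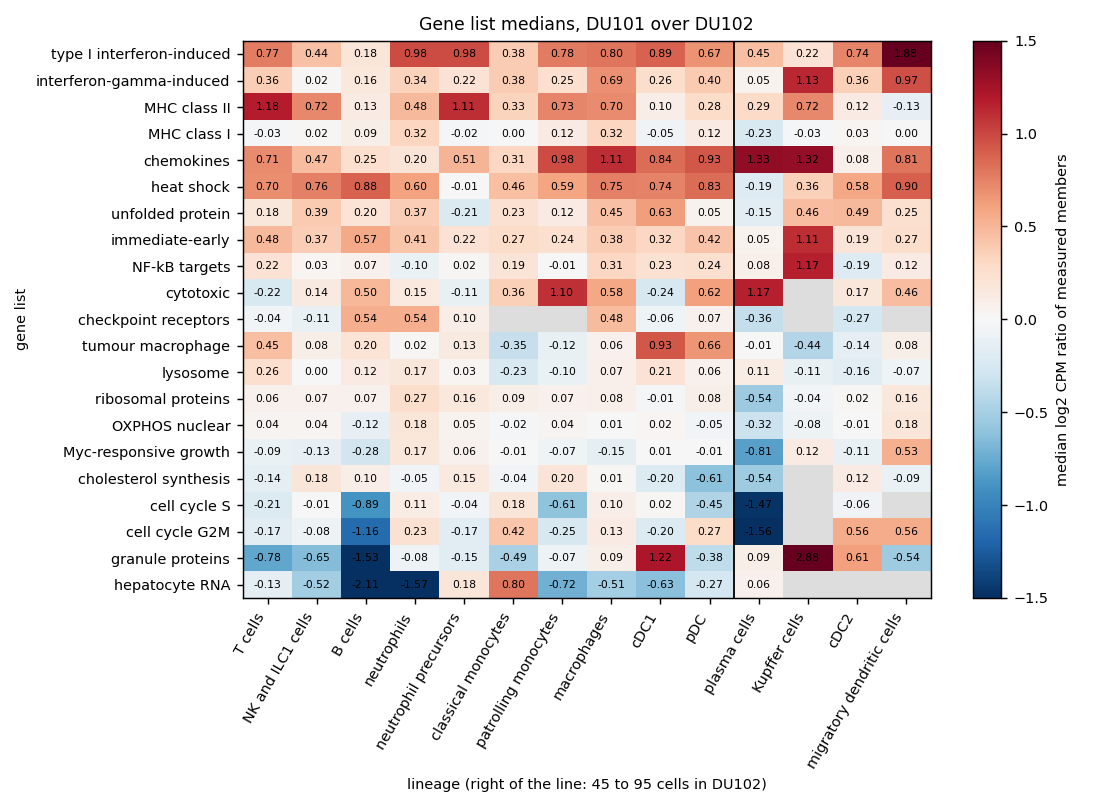
Median log2 CPM ratio (DU101 over DU102) of the measured members of 21 gene lists (rows) in 14 lineages (columns), red where higher in DU101 and blue where higher in DU102; grey marks lists with under 5 members measured. The rows of interferon, heat shock and chemokine genes are red across most lineages, while the ribosomal protein and OXPHOS rows lie between -0.12 and 0.27 in the 10 main lineages.

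MHC class II genes were higher in DU101, most often by count in T cells and neutrophil precursors. Of 98 gene-lineage pairs 45 were called higher in DU101 and 2 higher in DU102. T cells had 9 of 10 and neutrophil precursors 8 of 10, at low levels. B cells had 2 of 10, and cDC1, pDC and cDC2 1 of 10 each. Of all measured genes, 3.9% were called higher in DU101 in T cells, 3.06% in precursors and 3.51% in B cells. That share was 2.99% in cDC1, 3.58% in pDC and 3.07% in cDC2. In T cells H2-Aa, the alpha chain, stood at 176 CPM in DU101 and 54.9 CPM in DU102, 3.21-fold (interval 2.98 to 3.46). In cDC1 it stood at 7273 CPM in DU101 and 6592 CPM in DU102 (ratio 1.103, interval 1.08 to 1.12). Cd74, the invariant chain that guides class II molecules, stood at 404 CPM in DU101 and 161 CPM in DU102 in T cells and 14490 CPM in DU101 and 14050 CPM in DU102 in cDC1. Macrophages present antigen too and were further apart, at 4539 CPM in DU101 and 2560 CPM in DU102 for H2-Aa, 1.77-fold (interval 1.73 to 1.81), and 8984 CPM in DU101 and 5582 CPM in DU102 for Cd74, 1.61-fold (interval 1.58 to 1.64). How far class II RNA in T cells and precursors comes from dendritic cells, whose share was larger in DU101, was not tested.

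H2-Eb1, the beta chain of the I-E molecule, was called higher in DU101 in all 14 lineages, by 2.22- to 6.65-fold in the main 10. In B cells it stood at 2239 CPM in DU101 and 410.1 CPM in DU102, 5.46-fold (interval 5.16 to 5.78), whereas H2-Aa (3183 and 2820 CPM), H2-Ab1 (2750 and 2524 CPM) and Cd74 (8876 and 8159 CPM) were close. A UMI of H2-Eb1 was found in 97.8% of cells in DU101 and 52.9% in DU102 among B cells, at median depths of 2958.5 and 3074 UMIs. Among T cells, which should lack it, the shares were 17.1% and 6.17% at median depths of 4039 and 4801 UMIs. The gap was thus found in the share of B cells with a UMI as well as in the summed level. In macrophages H2-Eb1 stood at 3530 CPM in DU101 and 930.5 CPM in DU102, 3.79-fold (interval 3.66 to 3.93). The classical class I genes H2-K1 and H2-D1 were called in 0 of 10 lineages, with ratios of 0.854 to 1.27 and 0.706 to 0.967. The nonclassical H2-T22 was called higher in DU101 in 9 and H2-T23, the mouse Qa-1, in 8. Their reads may be split among class I relatives.

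Chemokines were higher in DU101 in all 10 main lineages by list median (0.20 to 1.11), with 75 of 148 pairs called higher in DU101 and 11 higher in DU102. In neutrophils the list median of 0.20 lay close to the all-gene median of 0.12, with 9 of 17 genes above it. The summed level of the list was higher in DU102 in T cells, at 6686 CPM in DU101 and 8208 CPM in DU102. Ccl4, an inflammatory chemokine, was called in 9 of the 10, and stood at 1335 CPM in DU101 and 590.4 CPM in DU102 in NK and ILC1 cells, 2.26-fold (interval 2.18 to 2.35), and 1599 CPM in DU101 and 742 CPM in DU102 in macrophages, 2.16-fold (interval 2.07 to 2.25). Ccl3, its close relative, stood at 134 CPM in DU101 and 29.5 CPM in DU102 in pDC, 4.53-fold (interval 3.55 to 5.84). In T cells both were under the size rule (489 and 369 CPM for Ccl4 and 83.5 and 76.1 CPM for Ccl3).

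Macrophages had the highest list median for chemokines of the 10 main lineages, with 12 of 19 measured chemokines called higher in DU101 and 2 higher in DU102. The summed level was 1.83-fold higher in DU101 macrophages and 2.43-fold higher in DU101 cDC1, where 10 of 15 chemokines were called higher in DU101. Among the CXCR3 ligands, which draw activated T and NK cells, Cxcl9 stood at 299 CPM in DU101 and 70.5 CPM in DU102, 4.24-fold (interval 3.73 to 4.83), and Cxcl10 at 371 CPM in DU101 and 85.7 CPM in DU102, 4.33-fold (interval 3.86 to 4.87). Among the CCR2 ligands, which draw monocytes, Ccl2 stood at 182 CPM in DU101 and 51.8 CPM in DU102, 3.52-fold (interval 3.03 to 4.104), and Ccl7, Ccl8 and Ccl12 were 4.46-fold, 4.39-fold and 4.25-fold higher. Cxcl1, which draws neutrophils, stood at 84.6 CPM in DU101 and 9.71 CPM in DU102, 8.71-fold (interval 6.28 to 12.4). A UMI of Cxcl1 was found in 50 of 987 DU101 and 8 of 643 DU102 macrophages, with 32.0% and 41.0% of its UMIs in 2 cells. By summed level, macrophages of DU101 were thus higher in these ligands for T cells, monocytes and neutrophils, the last by Cxcl1 in few cells. The 2 chemokines that were higher in DU102 were Cxcl13, which draws B cells, at 34.8 CPM in DU101 and 152 CPM in DU102, 4.37-fold (interval 3.71 to 5.17), and the CCR3 ligand Ccl24, at 7.69 CPM in DU101 and 29.9 CPM in DU102, 3.89-fold (interval 2.71 to 5.66). For Ccl24, 91.7% of the DU102 UMIs came from 2 cells, and without the 2 richest cells of each library it stood at 5.34 and 2.51 CPM.

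Other macrophage genes ran in both directions. Arg1, arginase, stood at 80.2 CPM in DU101 and 14.7 CPM in DU102, 5.46-fold (interval 4.15 to 7.29), with 48.2% of its DU101 UMIs in 2 cells. Hmox1, heme oxygenase, stood at 339 CPM in DU101 and 190.3 CPM in DU102, and Mmp12, macrophage elastase, at 190.3 CPM in DU101 and 109 CPM in DU102, which fell under the size rule without the 2 richest cells of each library (126 and 89.9 CPM). Spp1 (243 and 237 CPM), Trem2 (202 and 206 CPM) and Apoe (18020 and 17250 CPM), genes of lipid-handling tumour macrophages, were close. Higher in DU102 were Adamdec1, a secreted metalloprotease (17.4 CPM in DU101 and 144 CPM in DU102, 8.27-fold, interval 6.65 to 10.4), and Lipg, endothelial lipase (87.7 CPM in DU101 and 483 CPM in DU102, 5.51-fold, interval 4.98 to 6.1). Klra17, a member of the Ly49 receptor family whose genes are near-copies of each other, stood at 14.3 CPM in DU101 and 98.6 CPM in DU102. The same genes separated the patrolling monocyte gate, where Lipg stood at 2.01 CPM in DU101 and 129 CPM in DU102 and Adamdec1 at 16.1 CPM in DU101 and 89.7 CPM in DU102. There 46.2% of the Lipg UMIs in DU102 came from 2 cells.

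In classical monocytes the ratios of the CXCR3 ligands were smaller than in macrophages. Cxcl10 stood at 376 CPM in DU101 and 190.4 CPM in DU102, 1.97-fold (interval 1.84 to 2.12), and Cxcl9 at 105 CPM in DU101 and 83.1 CPM in DU102 (ratio 1.26, interval 1.12 to 1.42). Ifit2 stood at 105 CPM in DU101 and 43.3 CPM in DU102, 2.42-fold (interval 2.095 to 2.81). Hebp1, a heme-binding protein, was far higher in DU102, at 9.11 CPM in DU101 and 97.4 CPM in DU102 in classical monocytes, 10.7-fold (interval 8.16 to 14.2), and 16.7 CPM in DU101 and 99.3 CPM in DU102 in patrolling monocytes, 5.94-fold (interval 4.38 to 8.19). In macrophages the gap in Hebp1 was smaller, at 100.2 CPM in DU101 and 186 CPM in DU102. Spp1, osteopontin, stood at 57.8 CPM in DU101 and 251 CPM in DU102 in classical monocytes and the platelet factor Pf4 at 21.5 CPM in DU101 and 120.2 CPM in DU102, but 45.1% and 56.3% of their DU102 UMIs came from 2 cells each. In patrolling monocytes the cytokine Tnf stood at 130.4 CPM in DU101 and 46.8 CPM in DU102, 2.79-fold (interval 2.28 to 3.42). Cytotoxic genes were also higher in that gate, with 7 of 9 called higher in DU101, where 3.17% of all measured genes were. Among them were Ccl5 at 363 CPM in DU101 and 128 CPM in DU102 and Gzmb at 17.1 CPM in DU101 and 3.901 CPM in DU102. For Gzmb, 84.3% of the DU101 UMIs came from 2 cells. These are genes of T and NK cells, and the part of RNA or cells of those types in the gate was not tested.

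In T cells, the largest lineage, the 3 genes named as higher in DU101 were Hspb1, Rnaset2b and Ahsa2, an activator of Hsp90 (55.1 CPM in DU101 and 21.5 CPM in DU102, 2.56-fold, interval 2.27 to 2.904). Higher in DU102, beside Lars2, were Cdk6, a kinase of cell cycle entry, at 61.4 CPM in DU101 and 117 CPM in DU102, 1.91-fold (interval 1.78 to 2.06), and the histone gene Hist1h2ap at 135 CPM in DU101 and 237 CPM in DU102, 1.76-fold (interval 1.68 to 1.85), one of many near-identical histone genes. Granzyme A was lower in DU101: Gzma stood at 226 CPM in DU101 and 802 CPM in DU102, 3.54-fold (interval 3.42 to 3.67) higher in DU102. Gzma is also 1 of the 8 NK and ILC1 gate markers, and those 8 summed to 357 CPM in DU101 T cells and 962 CPM in DU102 T cells. The gap held inside CD8 T cells, at 336 CPM in DU101 and 1072 CPM in DU102, 3.19-fold (interval 3.08 to 3.31). The other killing genes were under the size rule, with Gzmb at 257 CPM in DU101 and 352 CPM in DU102 (ratio 0.731, interval 0.704 to 0.759), Prf1, perforin, at 57.1 CPM in DU101 and 66.8 CPM in DU102, and Ifng at 178 CPM in DU101 and 164 CPM in DU102. Of 14 cytotoxic genes measured, Gzma was the 1 called, where 5.03% of all measured T cell genes were called higher in DU102.

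Of 14 checkpoint and costimulation genes in T cells, 4 were called higher in DU102 and 1 higher in DU101. Of all measured T cell genes, 5.03% were called higher in DU102 and 3.9% higher in DU101. Pdcd1, which encodes PD-1, stood at 80.5 CPM in DU101 and 125 CPM in DU102, 1.56-fold (interval 1.46 to 1.66) higher in DU102. Tox, a transcription factor of exhausted T cells, stood at 69.3 CPM in DU101 and 105 CPM in DU102, 1.51-fold (interval 1.41 to 1.63), and its relative Tox2 at 8.59 CPM in DU101 and 13.02 CPM in DU102. Cd244a, the receptor 2B4, stood at 10.3 CPM in DU101 and 19.1 CPM in DU102. Pdcd1, Tox and Tox2 lay near the 1.5-fold limit. TMM scaling, with T cell factors of 0.975 for DU101 and 1.026 for DU102, moves ratios toward DU101 and takes these genes under it. Icos, a costimulatory receptor of helper cells, was higher in DU101, at 138 CPM in DU101 and 80.3 CPM in DU102, 1.72-fold (interval 1.61 to 1.84). The values differed between sub-gates. In CD8 T cells Pdcd1 stood at 80.2 CPM in DU101 and 152 CPM in DU102, 1.9-fold (interval 1.75 to 2.07) higher in DU102, whereas in regulatory T cells it stood at 196 CPM in DU101 and 137 CPM in DU102 (ratio 1.43, interval 1.17 to 1.75). Icos was called in CD4 T cells (336 CPM in DU101 and 175 CPM in DU102) and close in regulatory T cells (280.5 CPM in DU101 and 279 CPM in DU102). Lag3 (27.6 and 33.4 CPM), Havcr2, which encodes TIM-3 (17.2 and 16.4 CPM), and Ctla4 (144 and 106 CPM) were under the size rule over all T cells. Of 12 naive and memory genes 1 was called, Id3, at 45.3 CPM in DU101 and 28.5 CPM in DU102, 1.59-fold (interval 1.42 to 1.78).

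In NK and ILC1 cells 2 of 14 cytotoxic genes were called higher in DU101 and 0 higher in DU102. Of all measured genes in that gate, 2.68% were called higher in DU101 and 6.33% higher in DU102. Ifng, the cytokine that activates macrophages, stood at 343 CPM in DU101 and 134 CPM in DU102, 2.56-fold (interval 2.37 to 2.78), and Gzmc, a granzyme of highly activated killers, at 205 CPM in DU101 and 66.2 CPM in DU102, 3.101-fold (interval 2.78 to 3.47). For Gzmc, 34.2% of the DU101 UMIs came from 2 cells, and without the 2 richest cells of each library it stood at 136 and 50.7 CPM. The main granzymes were under the size rule on the other side, with Gzma at 6220 CPM in DU101 and 7846 CPM in DU102 and Gzmb at 829 CPM in DU101 and 1095 CPM in DU102, as was perforin, Prf1, at 337 CPM in DU101 and 427 CPM in DU102. A UMI of Ifng was found in 48.4% of cells in DU101 and 32.8% in DU102. Itih5, a matrix-binding protein, was higher in DU102, at 23.9 CPM in DU101 and 63.2 CPM in DU102, 2.64-fold (interval 2.21 to 3.17), as was Khdc1a, at 20.4 CPM in DU101 and 73.98 CPM in DU102, 3.63-fold (interval 3.02 to 4.38). NK and ILC1 cells were not separated, so a different mix of both cannot be told apart from a difference within either. Whether the gap in Ifng differs between this gate and T cells was not tested.

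B cells differed in division as well as in number. In all, 4 of 496 DU101 B cells (0.806%, interval 0.220 to 2.05) but 36 of 994 DU102 B cells (3.62%, interval 2.55 to 4.98) carried at least 3 of 8 division markers. Of 18 listed G2/M genes 17 were called higher in DU102 and 0 higher in DU101 (median log2 ratio -1.16), and of 17 S phase genes 13 (median -0.89), where 10% of all measured genes were called higher in DU102. Top2a, the topoisomerase of dividing cells, stood at 51.4 CPM in DU101 and 109 CPM in DU102, 2.12-fold (interval 1.702 to 2.66), and Mcm5, part of the replication helicase, at 11.4 CPM in DU101 and 35.1 CPM in DU102, 3.07-fold (interval 1.96 to 5.06). Pclaf, a partner of the replication clamp, stood at 35.3 CPM in DU101 and 138 CPM in DU102, and 80.9% of its DU101 UMIs came from 2 cells. Hist1h2ae stood at 70.1 CPM in DU101 and 237 CPM in DU102. Granule protein genes of neutrophils, at a summed 2200 CPM in DU101 and 8256 CPM in DU102, and hepatocyte genes, at 169 and 683 CPM, were higher in DU102 B cells too; 14 of 18 and 15 of 15 of those genes were called. For Afp, alpha-fetoprotein, 51.6% of the UMIs in DU102 B cells came from 2 cells. The 8 neutrophil precursor markers summed to 251 CPM in DU101 B cells and 399 CPM in DU102 B cells. The part of precursor RNA in the division genes was not tested.

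Immediate-early genes in B cells went the other way. Of 23 such genes, which stimulation induces within minutes, 11 were called higher in DU101 and 1, Ier3, higher in DU102. Of all measured genes in B cells, 3.51% were called higher in DU101. Dissociation also raises immediate-early genes, and the part of handling was not tested. Egr1, a zinc finger factor, stood at 109 CPM in DU101 and 60.2 CPM in DU102, 1.81-fold (interval 1.501 to 2.18), and Egr3 at 43.6 CPM in DU101 and 25.8 CPM in DU102, 1.69-fold (interval 1.26 to 2.27). Myc was higher in DU101, at 97.7 CPM in DU101 and 52.3 CPM in DU102, 1.87-fold (interval 1.53 to 2.28), as was Cd274, which encodes PD-L1, at 49.9 CPM in DU101 and 23.7 CPM in DU102, 2.11-fold (interval 1.57 to 2.82). Ciita, the master regulator of class II genes, stood at 103 CPM in DU101 and 148 CPM in DU102 (ratio 0.698, interval 0.591 to 0.8199). DU101 B cells were thus higher in early response genes and lower in division genes.

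Plasma cells, 592 in DU101 and 83 in DU102, differed in class and division. By the most abundant heavy chain, IgA cells made up 74.3% of plasma cells in DU101 (interval 70.6 to 77.8) and 55.4% in DU102 (interval 44.1 to 66.3). Cells with under 10 heavy chain UMIs were given no class but stay in these totals. Of the 592 DU101 cells, 440 were classed as IgA, 90 as IgG2b, 7 as IgG1, 5 as IgG2c and 4 as IgM. Of the 83 DU102 cells, 46 were IgA, 12 IgG2b, 6 IgM, 4 IgG2c, 3 IgG1 and 1 IgG3. The rest had no class and were a larger part of the DU102 plasma cells, which lowers the class percentages more in that library. IgG2b cells were 15.2% and 14.5%. IgM cells were 0.676% (4 cells) and 7.23% (6 cells), with intervals of 0.184 to 1.72 and 2.70 to 15.1. The share of plasma cells with at least 3 division markers was 9.63% in DU101 and 28.9% in DU102 (interval 19.5 to 39.9), and 3.95% and 13.9% after thinning to 2000 UMIs. All 18 G2/M genes and all 17 S phase genes measured were called higher in DU102, where 23.1% of all genes were; Mki67 stood at 66.2 CPM in DU101 and 244 CPM in DU102. The antibody joining chain, Jchain, stood at 44360 CPM in DU101 and 25500 CPM in DU102, 1.74-fold (interval 1.72 to 1.76), and Ypel3 at 53.6 CPM in DU101 and 31.8 CPM in DU102. The histone genes Hist1h2ap (66.5 and 395 CPM) and Hist1h3c (46.8 and 214 CPM) were higher in DU102. Antibody RNA takes a large part of a plasma cell's total, and with antibody genes left out of the total 714 genes were called higher in DU101 and 676 higher in DU102, in place of 303 and 2007. Of the heat shock genes, 0 of 14 were called higher in DU101 in plasma cells and 3 higher in DU102, where 23.1% of all genes were called higher in DU102. The list's median log2 ratio was -0.19, beside an all-gene median of -0.35, and 8 of 14 members lay above the all-gene median.

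Neutrophils, beside the interferon genes, had Klhdc4 at 60.4 CPM in DU101 and 19.4 CPM in DU102, 3.11-fold (interval 2.64 to 3.67). Cxcl3, which draws further neutrophils, was higher in DU102, at 28.7 CPM in DU101 and 69.3 CPM in DU102, 2.41-fold (interval 2.06 to 2.83), while Cxcl2, far more abundant, was close (6482 CPM in DU101 and 5658 CPM in DU102). Thbs1, thrombospondin-1, stood at 379.6 CPM in DU101 and 695 CPM in DU102, 1.83-fold (interval 1.75 to 1.92) higher in DU102. Both were in the same direction in blood-type and tumour-type cells, with Thbs1 at 483 and 922 CPM in the first and 707 and 1383 CPM in the second. Granule proteins, the defining cargo of neutrophils, were close: 17 of 18 were under the size rule, with S100a8 at 115400 CPM in DU101 and 123400 CPM in DU102, and Mpo, myeloperoxidase (28 and 43.6 CPM), was called higher in DU102. Afp, a hepatic tumour gene, was higher in DU102 neutrophils (12.3 CPM in DU101 and 119 CPM in DU102), but 74.1% of those UMIs came from 2 cells.

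Neutrophil precursors had 16 of 23 interferon genes but 0 of 14 heat shock genes called higher in DU101. Of the 18 listed granule protein genes, 1 was called in these precursors. Of all their measured genes, 3.06% were called higher in DU101 and 3.34% higher in DU102. Gstp3, a glutathione transferase, stood at 57.1 CPM in DU101 and 24.5 CPM in DU102, 2.33-fold (interval 2.08 to 2.62), and Cstdc5, a cystatin family gene with near copies, at 55.3 CPM in DU101 and 19.8 CPM in DU102, with 80.1% and 79.3% of its UMIs in 2 cells. Higher in DU102 were complement C3, at 216 CPM in DU101 and 365 CPM in DU102, 1.69-fold (interval 1.62 to 1.76), and Cap1, an actin regulator, at 83.02 CPM in DU101 and 149 CPM in DU102. Division markers were found in 59.9% of DU101 and 50.8% of DU102 precursors. After thinning to 2000 UMIs the order turned, with 32.1% and 36.8%, so no direction is given; the precursors had medians of 13039 and 11176 UMIs.

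In cDC1 the CXCR3 ligand Cxcl9 stood at 629 CPM in DU101 and 55.5 CPM in DU102, 11.3-fold (interval 9.64 to 13.4). A UMI of Cxcl9 was found in 28.8% of cells in DU101 and 15.6% in DU102 among cDC1, against 1.37% and 0.301% among T cells, and 59.7% of the DU102 UMIs came from 2 cells. Cxcl10 differed less (105 CPM in DU101 and 66.6 CPM in DU102, 1.58-fold, interval 1.34 to 1.88), but without the 2 richest cells of each library it stood at 65.8 and 15.7 CPM. Ccl17, which draws CCR4-bearing T cells, stood at 34.3 CPM in DU101 and 4.32 CPM in DU102, 7.93-fold (interval 4.43 to 15.6), with 18 and 3 cells carrying it. Serpina3g, a protease inhibitor, stood at 138 CPM in DU101 and 25.9 CPM in DU102, 5.32-fold (interval 4.17 to 6.87). Genes of the unfolded protein response, which senses misfolded protein in the endoplasmic reticulum, were called higher in DU101 in 8 of 14, the most of any main lineage, where 2.99% of all genes were. Hspa5, the chaperone BiP, stood at 857 CPM in DU101 and 478 CPM in DU102, 1.79-fold (interval 1.68 to 1.91), and Ddit3, the stress factor CHOP, at 35.4 CPM in DU101 and 14.8 CPM in DU102, 2.396-fold (interval 1.703 to 3.44). Xbp1, at 101 CPM in DU101 and 96.1 CPM in DU102, was close.

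RNA of other cells was higher in DU101 cDC1 as well. Granule genes of neutrophils were called in 12 of 16, with a summed level of 4909 CPM in DU101 and 1571 CPM in DU102, and S100a8 stood at 1381 CPM in DU101 and 337 CPM in DU102. Of the S100a8 UMIs in DU101, 73.9% came from 2 cells, and without the 2 richest cells of each library S100a8 stood at 367 and 310.0 CPM. The opposite was found in T cells, where 11 of 18 granule genes were higher in DU102, and in B cells. The part of neutrophil RNA in the cDC1 results was not tested. Higher in DU102 was Ece1, endothelin-converting enzyme, at 124 CPM in DU101 and 268 CPM in DU102, 2.15-fold (interval 1.94 to 2.39). Car1, a carbonic anhydrase of red cells, was the gene lowest in DU101 by ratio, but all 301 UMIs in DU102 came from 2 cells.

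The smaller dendritic classes, with 95 cDC2 and 45 migratory dendritic cells in DU102, had the same direction for interferon genes. In migratory dendritic cells Isg15 stood at 1003 CPM in DU101 and 114 CPM in DU102, 8.81-fold (interval 6.48 to 12.3), and Irf7 at 265 CPM in DU101 and 35.3 CPM in DU102, 7.504-fold (interval 4.33 to 14.2); 42.9% and 53.8% of the DU102 UMIs came from 2 cells. Ccl4 stood there at 132 CPM in DU101 and 5.42 CPM in DU102, with 39 and 2 cells carrying it. The 8 neutrophil markers summed to 25.8 CPM in DU101 and 428 CPM in DU102 migratory dendritic cells. The part of neutrophil RNA in the values of this gate was not tested. In cDC2, 13 of 21 interferon genes were called higher in DU101 and 0 higher in DU102, and Cxcl10 stood at 187 CPM in DU101 and 52.1 CPM in DU102, 3.597-fold (interval 2.71 to 4.86), with 43.2% and 48.1% of its UMIs in 2 cells. Granule genes of neutrophils moved the same way in cDC2, with 8 of 15 called higher in DU101 and a summed level of 4639 CPM in DU101 and 2170 CPM in DU102, though their list median turned to -0.76 without called doublets. Higher in DU102 in cDC2 were Ckb, a creatine kinase, at 22.96 CPM in DU101 and 92.6 CPM in DU102, 4.03-fold (interval 2.87 to 5.73), and Nlrp3, the inflammasome sensor, at 26.7 CPM in DU101 and 69.5 CPM in DU102, 2.6-fold (interval 1.83 to 3.7). For Nlrp3, 50% of the DU102 UMIs came from 2 cells, and without the 2 richest cells of each library it stood at 23.6 and 36.2 CPM, 1.53-fold higher in DU102 (interval 0.979 to 2.37) and no longer called. Cstdc4, higher in DU102 migratory dendritic cells, came from 1 cell. Kupffer cells, 73 and 49, had the acute-phase gene Saa3 at 3365 CPM in DU101 and 4.09 CPM in DU102, with 55.9% of the DU101 UMIs in 2 cells. Granule genes of neutrophils were higher in DU101 Kupffer cells too, with 10 of 12 called and a summed level of 26106 CPM in DU101 and 9386 CPM in DU102, and their part in the Kupffer cell values was not tested. Fibronectin, Fn1, which is also 1 of the 8 classical monocyte markers, had 1195 CPM in DU101 Kupffer cells and 0 UMIs in DU102. With 3 counts standing in for 0 it was 97.5-fold higher in DU101. Its DU101 UMIs were found in 12 cells, with 34.2% of them in 2 cells. Cd207, langerin (59.9 and 421 CPM), and Cx3cr1, the fractalkine receptor (89.8 and 482 CPM), were higher in DU102 Kupffer cells, on 9 and 12 DU102 cells with a UMI and with 40.8% and 44.9% of the DU102 UMIs in 2 cells.

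In pDC, genes of cholesterol synthesis were lower in DU101, with 9 of 15 called higher in DU102 and 0 higher in DU101 (median log2 ratio -0.61), where 6% of all genes were called higher in DU102. In the other 9 main lineages the list's median lay between -0.20 and 0.20. Plasma cells had a median of -0.54, beside an all-gene median of -0.35, with 4 of 14 called higher in DU102. Hmgcs1, an early enzyme of the pathway, stood at 31.2 CPM in DU101 and 66.5 CPM in DU102, 2.13-fold (interval 1.66 to 2.75). Sqle, squalene epoxidase, stood at 14.2 CPM in DU101 and 29.9 CPM in DU102, 2.105-fold (interval 1.45 to 3.097). Idi1, which makes an isoprenoid building block, stood at 39.8 CPM in DU101 and 59.7 CPM in DU102, 1.501-fold (interval 1.18 to 1.91), while Fdps, a later step, was close (95.96 and 97.9 CPM). Fam43a stood at 91.3 CPM in DU101 and 3.78 CPM in DU102, 24.1-fold (interval 12.9 to 50.9). Cadm1, an adhesion molecule and 1 of the 8 cDC1 markers, stood at 23.8 CPM in DU101 and 125 CPM in DU102, 5.25-fold (interval 4.09 to 6.82) higher in DU102, and Ldhb, a lactate dehydrogenase subunit, at 68.8 CPM in DU101 and 166 CPM in DU102, 2.41-fold (interval 2.04 to 2.84).

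Several broad lists were close between the libraries. Of 250 ribosomal protein gene-lineage pairs 2 were called higher in DU101 and 0 higher in DU102, and of 200 pairs of nuclear OXPHOS genes, which encode the respiratory chain, 0 and 2. Of 195 pairs of genes known to respond to Myc, 2 were called higher in DU101 and 11 higher in DU102. Myc itself was called in 2 of the 14 lineages, higher in DU101 in B cells and higher in DU102 in cDC2 (13.4 CPM in DU101 and 25.1 CPM in DU102; 10.9 and 16.1 CPM without the 2 richest cells of each library). Cd274 was called only in B cells of the 14, and was highest in patrolling monocytes (135 CPM in DU101 and 130.5 CPM in DU102) and migratory dendritic cells (131 CPM in DU101 and 111 CPM in DU102). Ptprc, the gene of the sorted protein CD45, was called in 0 of the 14, with a ratio of 0.732 in macrophages as the lowest and 0.984 in Kupffer cells as the highest; in T cells it stood at 959 CPM in DU101 and 1099 CPM in DU102. Division markers were found in 8.28% of DU101 and 10.1% of DU102 T cells, in 19.96% and 20.9% of NK and ILC1 cells, and in 24.6% and 25.2% of cDC1.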

How the data were processed

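White blood cells from liver tumours were profiled with 10x single-cell RNA sequencing in 1 library per treatment. The values used are raw UMI counts per gene and barcode, as deposited by the authors for 32285 features. Per the file headers the software was Cell Ranger 6.0.0. The submitters' processing notes list version 2.1.1 of it and the build mm10, and no annotation release was found.

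Barcodes needed 200 genes or more, and mitochondrial UMIs of no more than 10%. Each entered 1 of 17 gates by the most detected of 8 markers (at least 2; ties stayed ungated); monocytes, neutrophils and T cells were split by further markers (Kupffer cells need 3). Scrublet, in scanpy 1.11.5, called 458 and 249 of the kept cells doublets in DU101 and DU102, and these stayed in. UMIs were summed per library and lineage and scaled to the lineage total (CPM). Counts have no replicate here, so genes were called by size, as given in the text, with exact conditional Poisson intervals, and no test was made. Shares have exact Clopper-Pearson intervals, and 3 counts stand in for 0 in a fold. Intervals cover counting error only, and depth per lineage limits them. Dividing cells carry at least 3 of 8 markers. The calling was run on simulated Poisson counts with known ratios. Those counts do not hold a gene's UMIs gathered in few cells, so the run cannot check calls for that.

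Single genes were named by rule: per lineage, the 3 highest and 3 lowest by the interval end nearest 1 (2 each way in the 4 smaller lineages), among called genes that reached 50 CPM in the library where they were higher, and there 0.25 or more of their top level in any lineage. Added were genes called the same way in most lineages (up to 10 each way), up to 4 members of each list by ratio, and Ptprc, Cd274 and Myc. Mitochondrial, ribosomal, haemoglobin, antibody, T cell receptor, hepatocyte, sex-linked and unnamed genes were left out of the ranking. Further list members, such as those named as not called, were chosen after their values were seen. The members and lists were chosen with earlier results of these data known. Alternatives covered cell filters, doublet removal, gate markers, thinning to 2000 UMIs, gene minimums and scaling (TMM from edgeR 4.0.16). Python 3.11.15, numpy 2.4.6, pandas 2.3.3, scipy 1.17.1, matplotlib 3.10.9 and R 4.3.3 were used. Promoters are RefSeq's (GRCm38.p6). The control library was not used.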

Additional observations from a re-analysis of the deposited data

How the results depend on the processing

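No paired analysis was possible because each treatment has 1 library, and no replicate could be left out. Of 308 recalculated counts of called genes, 272 stayed within 1.5 times the count in the text, and 36 did not; the cause was not tested. Under TMM, genes higher in DU101 numbered 469 in B cells, 430 in cDC1, 419 in cDC2, 702 in macrophages, 375 in migratory dendritic cells, 427 in neutrophils, 414 in patrolling monocytes and 780 in plasma cells. Genes higher in DU102 then numbered 414 in NK and ILC1 cells, 357 in cDC1, 293 in cDC2, 687 in macrophages, 179 in migratory dendritic cells, 371 in neutrophils, 435 in patrolling monocytes and 613 in plasma cells. With median-ratio scaling the genes higher in DU101 were 481 in B cells, 350 in cDC2, 429 in neutrophils, 418 in patrolling monocytes and 677 in plasma cells. Those higher in DU102 were 588 in B cells, 400 in cDC1, 357 in cDC2, 705 in macrophages, 370 in neutrophils, 431 in patrolling monocytes and 707 in plasma cells. A minimum of 10 UMIs gave 319 genes higher in DU102 in Kupffer cells, and no minimum gave 370 there and 466 in migratory dendritic cells. With cells weighted alike, genes higher in DU102 were 133 in Kupffer cells, 579 in precursors and 1336 in plasma cells. With antibody genes left out of the total, plasma cells had 714 higher in DU101 and 676 higher in DU102. At 500 genes per cell or more, the log2 ratio of shares was -0.20 in precursors and -0.86 in neutrophils. After thinning before gating, the log2 ratio was -1.11 in neutrophils, -1.48 in blood-type and -0.78 in immature neutrophils, and -0.20 in precursors. It was then 0.11 in monocytes and macrophages, 0.011 in classical monocytes, 0.16 in macrophages and -0.55 in gamma-delta T cells. For the dividing share, thinning reversed the log2 ratio of precursors to -0.20 from 0.24 and moved that of neutrophils to 0.62. Among list medians, 4 of 4492 recalculations reversed: MHC class II in Kupffer cells with no minimum (-0.10), granule proteins in cDC2 without called doublets (-0.76) and with cells weighted alike (-0.027), and hepatocyte RNA in classical monocytes with cells weighted alike (-0.12). Of 199 recalculated shares, 189 moved by less than their interval and 0 reversed. With the 2 cells richest in a gene left out of each library, chosen after seeing the data, 72 of 76 genes named by rule in a lineage kept their call; over the rule's and the lists' genes 1249 of 1572 did and 57 reversed. Depth limits the smaller lineages most.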

Other observations

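Genes called the same way in at least 7 of the 10 main lineages were found on chromosome 17 more often than elsewhere by count. Of 74 such genes with a position, 12 lay there (16.2%), beside 701 of the 13109 measured genes with a position (5.35%). Of the measured genes on chromosome 17, 1.71% were of this kind, and of those on the other chromosomes 0.4997%. The 12 did not share a direction, since 8 were higher in DU101 and 4 higher in DU102. The 4 were Abca3, the gene models Gm50022 and BC023719, and Gm42418, listed above among genes linked to ribosomal RNA or the nucleus. By GENCODE M21 on GRCm38, Rnaset2b lies at 6970634 to 7011299 on the plus strand and Sft2d1 at 8311102 to 8327442 on the plus strand. Gfer, a sulfhydryl oxidase of the mitochondrial intermembrane space and higher in DU101 in 7 lineages, lies at 24693187 to 24696156 on the minus strand. Abca3, a lipid transporter and higher in DU102 in 7, lies at 24351950 to 24410201 on the plus strand. The MHC genes H2-Aa, H2-Eb1, H2-T23 and H2-T22 lie between 34282744 and 36042747, and Tnfsf9 at 57105325 to 57107757. Whether the animals of both libraries carry the same alleles on this chromosome was not tested and cannot be told apart from the treatments. No test was made of this placement, and the genes were singled out after their values were seen.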
